A study of Homo sapiens with 6 samples.

Results

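Bone morphogenetic protein (BMP) pathway genes were compared in the MDA-MB-231 line, an established line of human triple-negative breast cancer (TNBC), with and without knockdown of YAP1, the transcriptional co-activator of the Hippo pathway. The genes described are 10 of the 60612 genes with deposited values, chosen by their symbols: the ligands BMP2 and BMP4, the receptors BMPR1A and BMPR2, the signal transducers SMAD1 and SMAD5, the inhibitory SMAD6, and ID1, ID2 and ID3. The control group, Sh-NC, stably expressed a control short hairpin RNA in otherwise wild-type cells, and the Sh-YAP1 group stably expressed a hairpin against YAP1. Both groups received no further treatment, and RNA was taken on day 3, with 3 libraries in each group. Values of single libraries are given below in the order of replicates 1, 2 and 3. The labels do not say how many hairpins or clones stand behind a group, or whether the libraries of a group came from separate cultures, so the p-values measure only the spread between these libraries. Expression was given as FPKM, fragments scaled by transcript length and by the mapped total of the library, so levels can be compared between genes.

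BMP ligands are secreted dimers that bring together type I receptors such as BMPR1A and the type II receptor BMPR2. The active receptors phosphorylate SMAD1 and SMAD5, which enter the nucleus with SMAD4, while SMAD6 is induced by the pathway and holds it back. The ID genes are among the best-known direct targets. ID proteins carry a helix-loop-helix domain without a DNA-binding region, and they pair with E proteins such as TCF3 and keep them from DNA. In breast cancer cells ID1 and ID3 are known for roles in self-renewal and metastasis.

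The knockdown was seen in every library. YAP1 was at 28.1, 26.2 and 22.9 FPKM with Sh-NC against 3.35, 2.67 and 2.58 FPKM with Sh-YAP1, a log2 fold change of -2.79 (limma, Benjamini-Hochberg adjusted p = 0.0018). FPKM summed to between 467493 and 475116 per library, and the depth in reads is unknown. The mesenchymal TNBC markers VIM, CD44, AXL, EGFR and CAV1 were all expressed. VIM made up most of their summed level, which was 2429 to 3102 FPKM with Sh-NC against 2431 to 2684 FPKM with Sh-YAP1. AXL, a receptor tyrosine kinase, was the one of these that passed the test, with a log2 fold change of -0.35 (limma, Benjamini-Hochberg adjusted p = 0.0390), without overlap between the groups. CAV1, the main protein of caveolae, stood at 329.1, 341.6 and 342.1 FPKM in the Sh-NC libraries and 251.3, 273.0 and 169.7 FPKM in the Sh-YAP1 libraries, also without overlap, and its log2 fold change of -0.57 did not pass (limma, Benjamini-Hochberg adjusted p = 0.126). The part of these markers in the results was not tested. ESR1 and PGR stayed at or below 0.07 FPKM, while ERBB2 reached 14.3 to 18.1 FPKM. The epithelial markers CDH1 and EPCAM summed to 2.73 to 3.51 FPKM in the Sh-NC libraries and 2.69 to 2.96 FPKM in those with Sh-YAP1. Of the other cell types, the 4 leukocyte markers summed to 0.32 to 0.50 FPKM with Sh-NC against 0.45 to 0.88 FPKM with Sh-YAP1, with CD3E at 0 in all libraries. The 3 endothelial markers summed to 0.77 to 1.76 and 0.78 to 1.55 FPKM, and the 4 fibroblast markers to 1.74 to 2.60 and 1.48 to 2.24 FPKM. In bulk RNA, a change in every cell and a change in the share of cells that express a gene cannot be told apart.

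Of the 10 genes, ID1 fell and ID3 rose in Sh-YAP1, and no other member passed the test. BMP2 stayed below the filter of a mean of 0.5 FPKM, so 9 were tested. Among all 14770 genes tested, 3.38% passed limma at a Benjamini-Hochberg adjusted p under 0.05, with 1.75% higher and 1.62% lower in Sh-YAP1, against 1 higher and 1 lower among the 9 members. These counts rested on all 6 libraries, and the members were chosen with earlier results of these data known. With any one left out, 80 to 170 of all genes passed in place of 499, and 0 or 1 of the members. The groups did not overlap for 4 of the 9, namely BMP4, BMPR2 and ID3 (higher) and ID1 (lower), where 29.4% of all genes tested had no overlap. Fold changes were taken on the log2(FPKM + 1) scale, which understates those of low genes, and their median was 0.13 over the 9 members and -0.0014 over all genes tested.

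**Figure D1:**
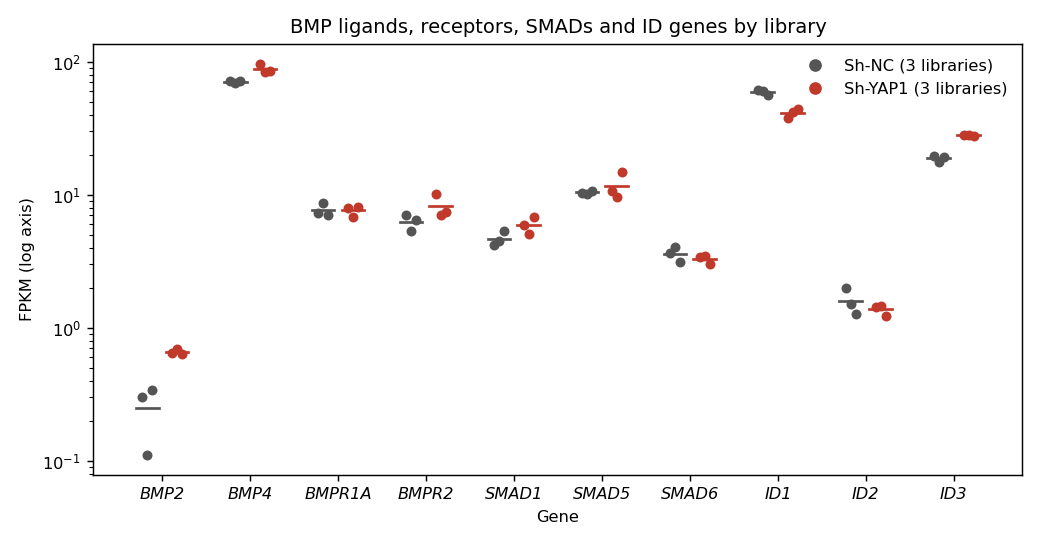
FPKM on a log axis for each of the 10 genes in 3 Sh-NC libraries (grey) and 3 Sh-YAP1 libraries (red), with lines at the group means. BMP4 and ID1 have the highest levels and BMP2 the lowest in both groups, and ID1 and ID3 are displaced in opposite directions.

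The levels spanned a wide range. In Sh-NC, BMP4 was highest at 70.6 ± 1.26 FPKM (SD, n = 3), followed by ID1, ID3, SMAD5, BMPR1A, BMPR2, SMAD1, SMAD6, ID2 and BMP2. Neighbours in this order had separate ranges over the 3 Sh-NC libraries, except that those of BMPR2 and SMAD1 met at 5.35 FPKM. In Sh-YAP1 the same 3 genes led and the same 3 genes were last. BMPR2 stood above BMPR1A by its mean there, and SMAD5, BMPR2 and BMPR1A each overlapped with the next gene in the order.

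BMP4 had the highest level of the BMP ligands in these cells. It was at 71.2, 69.1 and 71.4 FPKM in the Sh-NC libraries and 96.8, 83.4 and 84.9 FPKM in the Sh-YAP1 libraries. Every Sh-YAP1 library was above every Sh-NC library, and the means, 70.6 ± 1.26 and 88.4 ± 7.33 FPKM (SD, n = 3 each), differed by 25.2%. The log2 fold change was 0.32 (standard error 0.08), and the adjusted p of 0.0807 from limma (Benjamini-Hochberg) missed the threshold. By an exact permutation test, two-sided, p was 0.1, the smallest that 3 libraries against 3 allow. The deposited values hold 9 transcripts of BMP4, named by gene only. The most abundant held 62.1% of the FPKM and had a mean of 42.1 FPKM with Sh-NC against 56.6 with Sh-YAP1, without overlap.

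BMP2, a close relative of BMP4, had the lowest level of the members. It was at 0.30, 0.11 and 0.34 FPKM under Sh-NC, and 0.65, 0.69 and 0.63 FPKM under Sh-YAP1. The groups did not overlap, and the Sh-NC mean was 0.25 FPKM against 0.66 FPKM in Sh-YAP1. When all genes above 0 were tested, its log2 fold change was 0.41 with an adjusted p of 0.135 (limma, Benjamini-Hochberg).

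Neither receptor gene passed the test. BMPR1A, a type I receptor, was at 7.33, 8.69 and 7.06 FPKM with Sh-NC against 8.01, 6.81 and 8.08 FPKM with Sh-YAP1. The groups overlapped, and the 95% interval of its log2 fold change ran from -0.27 to 0.25. Its main transcript, with 80.3% of the FPKM, stood at 5.83 to 5.98 FPKM with Sh-NC against 6.07 to 6.67 FPKM with Sh-YAP1. BMPR2, the type II receptor of the pathway, was at 6.98, 5.35 and 6.49 FPKM in the Sh-NC libraries and 10.2, 7.04 and 7.40 FPKM in the Sh-YAP1 libraries. The groups of BMPR2 did not overlap, with Sh-YAP1 replicate 1 standing above the other two. Its log2 fold change was 0.33 with a 95% interval of -0.04 to 0.70 (limma, Benjamini-Hochberg adjusted p = 0.275), and it was 0.18 without Sh-YAP1 replicate 1.

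The SMAD genes that carry the signal did not pass the test either. SMAD1 was at 4.21, 4.47 and 5.35 FPKM under Sh-NC, and 5.95, 5.04 and 6.83 FPKM under Sh-YAP1. The ranges overlapped between Sh-NC replicate 3 and Sh-YAP1 replicate 2, and the log2 fold change was 0.29 (limma, Benjamini-Hochberg adjusted p = 0.259). The main SMAD1 transcript, with 83.3% of the FPKM, was at 3.55 to 4.08 FPKM with Sh-NC against 4.52 to 5.27 FPKM with Sh-YAP1. SMAD5 was at 10.4, 10.2 and 10.7 FPKM with Sh-NC against 10.6, 9.68 and 14.7 FPKM with Sh-YAP1. Only Sh-YAP1 replicate 3 stood apart, and without it the log2 fold change went from 0.13 to -0.04. The most abundant SMAD5 transcript was at 5.65 to 7.75 FPKM with Sh-NC against 3.67 to 7.07 FPKM with Sh-YAP1, and the groups overlapped. The third in abundance did not overlap, at 0.11 to 0.84 FPKM with Sh-NC against 1.14 to 4.69 FPKM with Sh-YAP1. The fifth did not overlap either and was lower, at 0.42 to 1.13 FPKM with Sh-NC against 0.00 to 0.41 FPKM with Sh-YAP1. SMAD6, the inhibitory SMAD, was at 3.67, 4.04 and 3.12 FPKM in the Sh-NC libraries and 3.40, 3.44 and 3.01 FPKM in the Sh-YAP1 libraries. The groups overlapped, and the 95% interval of its log2 fold change ran from -0.36 to 0.16. The antisense genes annotated over SMAD1, SMAD5 and ID2 had mean levels of at most 0.017 FPKM in either group.

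The ID genes held both changes that passed the test, in opposite directions. Promoter bases of both are shown because these genes moved apart, taken from RefSeq on GRCh38.p14 on the strand of each gene, with capitals for the only match to the motifs searched. The first is chr20:31605039-31605282 (plus strand), the 244 bases that end where the transcripts of ID1 begin in GENCODE 29. The second is chr1:23559634-23559658 (minus strand), 25 bases around the match in the window of ID3. GENCODE 29 places the start of the ID3 coding transcript further upstream than RefSeq, so that this window lies in its annotated 5′ UTR, from 23559427 to 23559794 on chromosome 1.
ID1: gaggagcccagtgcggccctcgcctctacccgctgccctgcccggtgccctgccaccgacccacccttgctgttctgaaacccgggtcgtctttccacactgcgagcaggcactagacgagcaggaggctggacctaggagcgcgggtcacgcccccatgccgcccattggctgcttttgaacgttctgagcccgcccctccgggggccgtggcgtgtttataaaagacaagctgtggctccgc
ID3: tcttcggcgtCAGACcagccggagg

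The 250 bases before the RefSeq start of each ID gene were searched on both strands for GGCGCC, a GC-rich site of SMAD1 and SMAD5, for GTCTG, which contains the core SMAD-binding site, and for CATTCC, the site of the TEAD partners of YAP1. The one match was a GTCTG on the reverse strand, which reads CAGAC on the strand of the gene, from -147 to -143 relative to the start of ID3. ID1 and ID2 held no match to these letters in the window. Of 35116 promoters of the same length, 16.4% held GGCGCC, 38.0% held GTCTG and 11.9% held CATTCC on either strand. The BMP response elements known for ID1 lie further upstream and were not part of this window.

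ID1 was at 60.8, 60.2 and 56.5 FPKM under Sh-NC, and 37.5, 41.8 and 44.0 FPKM under Sh-YAP1. All 3 Sh-YAP1 libraries were below all Sh-NC libraries. The means were 59.2 ± 2.29 and 41.1 ± 3.31 FPKM (SD, n = 3 each), so that ID1 fell by 30.6%. The limma fit put the log2 fold change at -0.52 ± 0.08 (SE) with a Benjamini-Hochberg adjusted p of 0.0279, and ID1 ranked 251 of 14770 by p. One transcript held 90.1% of its FPKM and went from 53.6 to 36.8 FPKM by its mean, and the other was at 4.33 to 6.34 FPKM with Sh-NC against 3.40 to 5.11 FPKM with Sh-YAP1. The call was lost whichever library was left out, with an adjusted p of 0.0652 to 0.106 (limma, Benjamini-Hochberg) and a log2 fold change of -0.57 to -0.46.

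ID3 was at 19.5, 17.7 and 19.2 FPKM with Sh-NC against 28.2, 28.1 and 27.5 FPKM with Sh-YAP1. All 3 Sh-YAP1 libraries were above all Sh-NC libraries. The mean rose from 18.8 ± 0.97 to 27.9 ± 0.36 FPKM (SD, n = 3 each), which is 48.7% higher. The limma fit put the log2 fold change at 0.55 ± 0.07 (SE) with a Benjamini-Hochberg adjusted p of 0.0173, and ID3 ranked 113 of 14770 by p. One transcript held 92.0% of its FPKM, and all 3 of its transcripts had a higher mean in Sh-YAP1. Without Sh-NC replicate 3 the call held at an adjusted p of 0.0487 (limma, Benjamini-Hochberg), and without any other single library it was lost, at up to 0.0729, with a log2 fold change of 0.51 to 0.58.

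ID2 was expressed at a low level. It was at 1.98, 1.52 and 1.26 FPKM in the Sh-NC libraries and 1.44, 1.45 and 1.23 FPKM in the Sh-YAP1 libraries, and the groups overlapped. The 95% interval of its log2 fold change ran from -0.43 to 0.20. ID4, the remaining family member, was below the filter, at 0.31, 0.28 and 0.18 FPKM under Sh-NC, and 0.48, 0.40 and 0.56 FPKM under Sh-YAP1.

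**Figure D2:**
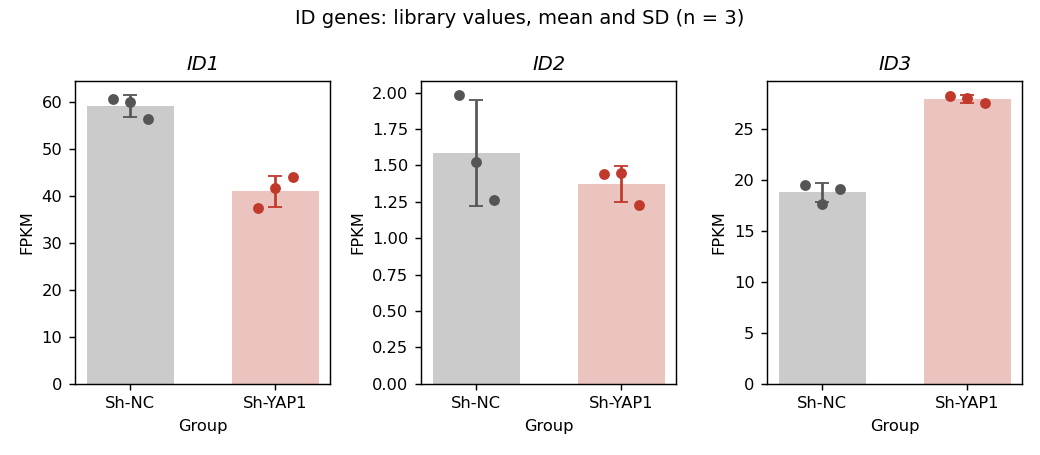
FPKM of ID1, ID2 and ID3 in Sh-NC (grey) and Sh-YAP1 (red), with points for the 3 libraries, bars for the mean, error bars for the SD and a different axis from 0 in each panel. The ID1 points are lower and the ID3 points higher in Sh-YAP1 without overlap, and the ID2 points overlap.

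The balance between the ID genes was compared within each library. The ratio of ID1 to ID3 FPKM was 3.12, 3.40 and 2.95 in Sh-NC replicates 1 to 3 and 1.33, 1.49 and 1.60 in Sh-YAP1 replicates 1 to 3. Every Sh-NC library was above every Sh-YAP1 library. On the log2(FPKM + 1) scale, ID1 exceeded ID3 by 1.61 ± 0.10 in Sh-NC and by 0.54 ± 0.13 in Sh-YAP1 (SD, n = 3 each). The change in this difference was -1.07. It restates the values of ID1 and ID3, whose groups were already apart in opposite directions, and is given as a description with no test. The differences of ID1 to ID2 and of ID2 to ID3 changed by -0.40 and -0.67. The groups did not overlap in either on this scale, but with a pseudocount of 0.01 the change of ID1 to ID2 was -0.34 and its exact permutation p was 0.2, against 0.1 with a pseudocount of 1. The 3 ID genes together summed to 77.0 to 82.3 FPKM with Sh-NC against 67.1 to 72.7 FPKM with Sh-YAP1. ID1 made up 74.4% ± 1.25 of this sum in Sh-NC and 58.3% ± 2.33 in Sh-YAP1 (SD, n = 3 each).

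The rest of the pathway was read from a list of 81 genes, chosen with earlier results of these data known. Of these, 44 passed the filter and 37 did not, and 9 of the 37 were listed at 0 in all libraries. Of the 44, 3 rose, 2 fell and 39 did not pass the test, against 3.38% of all genes tested that passed at this threshold. With any one library left out, 2 or 3 of the 44 or 45 then tested passed in place of 5. The groups did not overlap for 6 genes that were higher and 6 that were lower, where 29.4% of all genes tested had no overlap. The median log2 fold change of the 44 was -0.01. The genes that passed were 4 secreted antagonists and TCF3.

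Noggin and chordin-like 1, which bind BMP ligands and keep them from their receptors, rose. NOG was at 11.8, 12.02 and 11.4 FPKM with Sh-NC against 15.4, 15.7 and 16.5 FPKM with Sh-YAP1, without overlap. Its log2 fold change by limma was 0.41 ± 0.07 (SE) with a Benjamini-Hochberg adjusted p of 0.0352. CHRDL1 was at 6.84, 6.77 and 7.71 FPKM in the Sh-NC libraries and 10.8, 10.1 and 12.2 FPKM in the Sh-YAP1 libraries. The groups did not overlap, and its log2 fold change by limma was 0.56 ± 0.10 (SE) with a Benjamini-Hochberg adjusted p of 0.0354. Both calls were lost whichever library was left out, with an adjusted p of 0.0796 to 0.118 for NOG and 0.0719 to 0.124 for CHRDL1 (limma, Benjamini-Hochberg).

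Follistatin and follistatin-like 1 fell. FST, which binds activins most tightly and some BMPs, was at 69.2, 65.3 and 64.0 FPKM under Sh-NC, and 32.6, 37.2 and 39.0 FPKM under Sh-YAP1. Its mean fell by 45.2%, with a limma log2 fold change of -0.85 ± 0.09 (SE) and a Benjamini-Hochberg adjusted p of 0.00978. Its call held without any one library. FSTL1, a secreted glycoprotein of the same family, was at 48.8, 48.1 and 50.5 FPKM with Sh-NC against 29.7, 30.1 and 33.2 FPKM with Sh-YAP1. The groups were far apart, and the limma fit put the log2 fold change at -0.65 ± 0.07 (SE) with a Benjamini-Hochberg adjusted p of 0.0121. The call of FSTL1 was lost without Sh-NC replicate 1, Sh-NC replicate 2 or Sh-YAP1 replicate 2, with an adjusted p of 0.0531 to 0.0577 (limma, Benjamini-Hochberg). The other 4 antagonists tested, FSTL3, TWSG1, NBL1 and BAMBI, did not pass the test.

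TCF3, the E protein that ID proteins bind, rose from 13.4 ± 0.84 to 23.0 ± 0.41 FPKM (SD, n = 3 each). It was at 14.2, 12.5 and 13.4 FPKM in the Sh-NC libraries and 23.4, 22.5 and 23.0 FPKM in the Sh-YAP1 libraries. The limma fit put the log2 fold change at 0.74 ± 0.07 (SE) with a Benjamini-Hochberg adjusted p of 0.00978. Most of this difference lay in one transcript, at 2.97, 0.00 and 5.54 FPKM under Sh-NC, and 11.9, 10.6 and 11.4 FPKM under Sh-YAP1, without which the log2 fold change was 0.16 (limma, Benjamini-Hochberg adjusted p = 0.597). The ratio of TCF3 to the sum of the ID genes was 0.16 to 0.17 in Sh-NC and 0.32 to 0.35 in Sh-YAP1. It restates the values of TCF3, including that transcript, and of the ID genes, and is given as a description with no test. TCF12, the other E protein tested, was at 13.2 ± 1.93 FPKM with Sh-NC against 12.3 ± 0.81 FPKM with Sh-YAP1 (SD, n = 3 each) and did not pass the test.

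**Figure D3:**
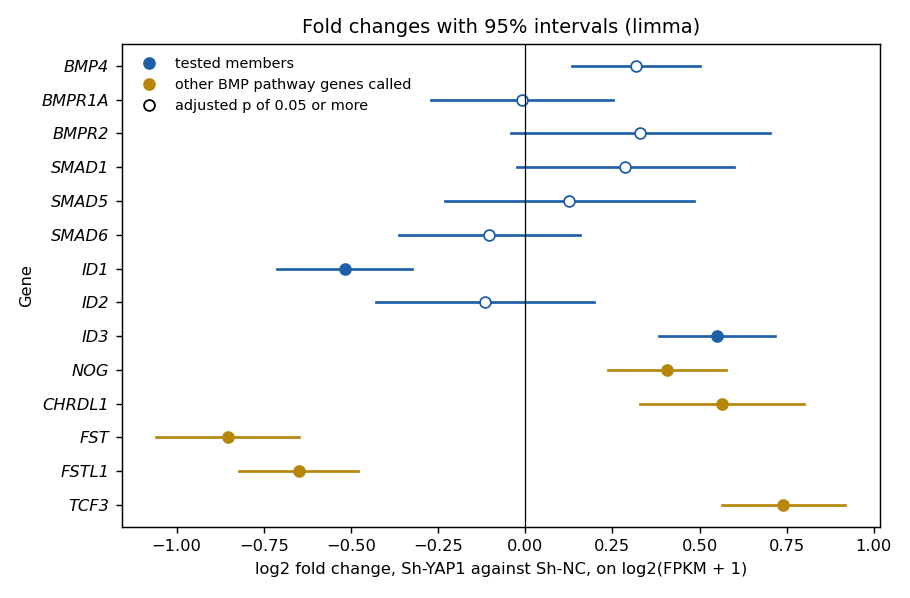
Log2 fold changes of Sh-YAP1 against Sh-NC on the log2(FPKM + 1) scale with 95% intervals from limma, for the 9 tested members (blue) and the 5 other pathway genes that passed the test (gold). Filled points have an adjusted p under 0.05, and of these ID1, FST and FSTL1 lie below 0, and ID3, NOG, CHRDL1 and TCF3 above it.

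No other role had a gene that passed the test. Among the other ligands, BMP8B was the single one tested, at 1.52 ± 0.12 FPKM with Sh-NC against 1.41 ± 0.06 FPKM with Sh-YAP1 (SD, n = 3 each), and BMP6 was at 0.12 to 0.30 FPKM. Among the 3 other receptors tested, the type I receptor ACVR1 was at 9.22, 9.39 and 10.1 FPKM with Sh-NC against 10.6, 15.2 and 7.64 FPKM with Sh-YAP1. ACVR2A, a type II receptor, was at 1.60 ± 0.06 FPKM with Sh-NC against 1.58 ± 0.20 FPKM with Sh-YAP1 (SD, n = 3 each). Of the 3 co-receptors tested, RGMB had means of 25.4 and 22.6 FPKM and TGFBR3, also known as betaglycan, of 8.39 and 4.96 FPKM in Sh-NC and Sh-YAP1. Neither overlapped between the groups, and TGFBR3 had a log2 fold change of -0.64 with an adjusted p of 0.0628 (limma, Benjamini-Hochberg). The 4 proteases tested included FURIN, which cleaves BMP precursors, at 23.9 ± 0.93 FPKM with Sh-NC against 25.8 ± 1.41 FPKM with Sh-YAP1, and BMP1, at 8.49 ± 0.35 and 8.01 ± 0.32 FPKM (SD, n = 3 each).

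Of 13 further SMADs and regulators tested, none passed after adjustment and 1 had an unadjusted limma p under 0.05, where 21.9% of all genes tested did. This was CTDSP1, a phosphatase that acts on SMAD proteins, at 62.5, 59.8 and 52.8 FPKM in the Sh-NC libraries and 38.9, 44.4 and 30.2 FPKM in the Sh-YAP1 libraries, with an adjusted p of 0.0755. SMURF2, a ubiquitin ligase of SMADs and receptors, was at 38.9 ± 1.73 FPKM with Sh-NC against 38.1 ± 1.30 FPKM with Sh-YAP1 (SD, n = 3 each). Of the 10 further target genes tested, HES1 and MSX2 had an unadjusted p under 0.05 (limma), a share near the 21.9% of all genes tested, and none passed after adjustment. HES1, a transcriptional repressor, had a log2 fold change of 0.23 and MSX2, a homeobox factor, one of -0.25, each without overlap and with an adjusted p of 0.167 and 0.171 (limma, Benjamini-Hochberg). The most abundant of the 10 were JUNB and SNAI2. JUNB was at 16.3 ± 1.25 and 16.6 ± 0.24 FPKM, and SNAI2 at 11.8 ± 1.11 and 13.5 ± 1.20 FPKM, in Sh-NC and Sh-YAP1 (SD, n = 3 each).

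**Figure D4:**
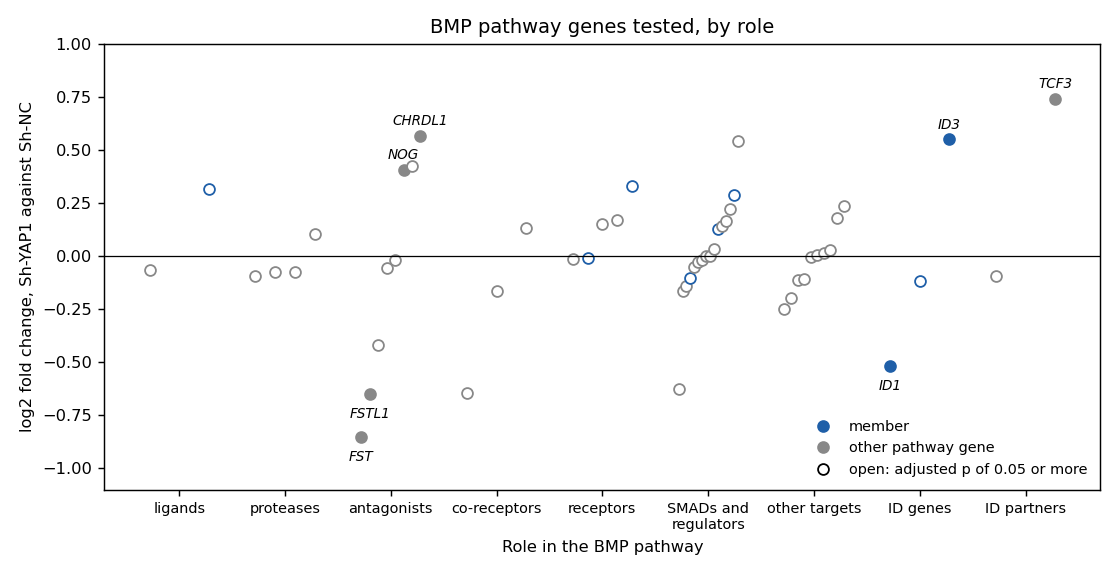
Log2 fold changes of Sh-YAP1 against Sh-NC for the 9 members (blue) and 44 other pathway genes (grey) tested, by role. The filled and named points, with an adjusted p under 0.05 (limma), lie among the antagonists, the ID genes and the ID partners, and in the antagonists and the ID genes they lie on both sides of 0.

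The most similar profiles were found by the root-mean-square difference of log2(FPKM + 1) over the 6 libraries, after each gene was set to 0 at its Sh-NC mean, among genes averaging 5 FPKM or more. Among the nearest to ID1 were SLC7A5 and CDC20, with differences of 0.033 and 0.038. SLC7A5, an amino acid transporter, had a mean of 93.4 FPKM with Sh-NC against 64.6 with Sh-YAP1. The nearest to ID3 were TMEM63A, MORC4 and CREBL2, with differences of 0.030, 0.034 and 0.041. MORC4, nearest but one to ID3, had means of 33.7 and 48.9 FPKM in Sh-NC and Sh-YAP1. For ID2, which did not pass the test, they were LENG8, FBXO17 and PHB1, with differences of 0.041, 0.043 and 0.046. These genes were picked for their likeness over the same libraries, and their values are a description.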

How the data were processed

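The data were 6 RNA-sequencing libraries of the MDA-MB-231 line. The authors deposited FPKM values with 2 decimals, for 229420 transcripts labelled by 60612 gene identifiers. Per the labels, HISAT2 2.0, Bowtie 0.12.2 and the build hg19 were used. The annotation and the quantification tool are not given in the sources used here, and the libraries carry no counts or depth. Each member has as many transcripts in the files as in GENCODE 29 (GRCh38), and positions are given on GRCh38 from the annotation, since the deposited values carry none.

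FPKM were summed per gene, and 60401 identifiers had a symbol. Genes averaging 0.5 FPKM or more were tested on log2(FPKM + 1) in R 4.3.3 by limma 3.58.1 with a mean-variance trend, group as sole factor and p-values adjusted by Benjamini-Hochberg over 14770 genes. Fold changes on this scale understate those of low genes. Single values were compared by exact permutation tests. The code was tested on simulated data.

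The members and lists were chosen with earlier results of these data known. The genes named were the members, YAP1, cell type markers, pathway genes with an adjusted p under 0.05 or among the 2 highest of their role, and 3 nearest profiles for each ID gene, of which one for ID1 is not reported here. NOG, CHRDL1, FST, FSTL1 and TCF3 came from this rule, and FSTL3, TWSG1, NBL1, BAMBI, HES1, MSX2 and ID4 were picked after seeing their values. Other settings tried were the pseudocount, scaling, filter, trend, replicate number and single libraries or transcripts.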

Additional observations from a re-analysis of the deposited data

How the results depend on the processing

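By limma with a Benjamini-Hochberg adjusted p under 0.05, 2 members passed, 1 (ID3) with no filter and 0 to 1 with each library left out. In the fits with a library left out, 3 to 5 members and 17.7% to 20.8% of all genes tested had an unadjusted p under 0.05. These fits tested 9 members, or 10 without Sh-NC replicate 2, where BMP2 passed the filter. For all genes tested the number at an adjusted p under 0.05 was 499, 232 with no filter and 80 to 170 with each library left out. For the other pathway genes it was 5, 3 with no filter and 2 to 3 with each library left out. ID1 was at an adjusted p of 0.0521 (limma) with no filter. With no filter 30501 genes were tested in place of 14770, and with a library left out 5 libraries remained. FST and TCF3 passed whichever single library was left out.

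With the replicate number as a block (replicate block), 0 members, 0 other pathway genes and 1 of all genes had an adjusted p under 0.05, while 5, 9 and 2779 (18.8% of all genes tested) had an unadjusted p under 0.05 (limma). ID1 and ID3 were then at adjusted p = 0.141 and 0.124 (limma). Same-numbered libraries correlated at -0.028, 0.062 and 0.0042 in their deviations from the group means. Replicate 2 of each group correlated best with its own number, and the other libraries did not. Libraries of different number correlated at -0.085 to 0.077. The labels do not say whether same-numbered libraries were prepared together, and correlations this near 0 cannot decide it.

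The pseudocount of 0.1 or 0.01, quantile normalization, median centring, no trend, the stricter filter and the row filter kept the direction of each member tested and the calls of ID1 and ID3. Leaving out the transcript that changed most gave ID1 -0.31 and ID3 0.63, with adjusted p = 0.35 and 0.198 (limma). These transcripts hold nearly all of their FPKM. The same setting gave BMP4 0.15, BMPR2 0.16 and SMAD1 0.14, with adjusted p = 0.542, 0.536 and 0.855 (limma). The calls of FSTL1 and CHRDL1 were lost, at -0.25 and 0.73 with adjusted p = 0.399 and 0.192 (limma). FST kept its call, at -0.79 with adjusted p = 0.0113 (limma). Among the members tested, directions reversed only in BMPR1A (main log2 fold change -0.01), to 0.072 without Sh-NC replicate 2, 0.062 without Sh-YAP1 replicate 2 and 0.11 without its most changed transcript, and in SMAD5 (0.13), to -0.039 without Sh-YAP1 replicate 3 and -0.12 without its most changed transcript. With each library left out, BMPR1A ranged from -0.061 to 0.072 and SMAD5 from -0.039 to 0.24. The same range was 0.18 to 0.42 for BMPR2, 0.20 to 0.38 for SMAD1, 0.25 to 0.36 for BMP4, -0.18 to -0.036 for SMAD6 and -0.21 to -0.0093 for ID2. The causes were not tested. The change in the difference of ID1 to ID3 stayed between -1.13 and -0.998 with each library left out. Without read counts, no limit of detection can be given for BMP2, ID2 or ID4.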
